A study of Mus musculus with 35 samples.

Results

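Matrix metalloproteinases (MMPs) are zinc-dependent enzymes that cut proteins of the extracellular matrix, and tissue inhibitors of metalloproteinases (TIMPs) bind their active site and block it. The genes described here are Mmp2, Mmp3, Mmp9, Mmp12, Mmp13, Mmp14, Mmp19, Timp1, Timp2 and Timp3, which were found by gene name and were 10 of the 21203 genes in the table. Most MMPs are made as inactive proenzymes, are activated by removal of a propeptide and are then held in check by TIMPs. In injured brain, MMPs are known for cutting the basement membrane around vessels, for opening the blood-brain barrier and, later, for tissue remodeling, and they are made by infiltrating leukocytes, microglia, astrocytes, endothelial cells and fibroblasts.

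RNA-seq was done on left-hemisphere tissue around the treatment site of 34 male C57BL/6N mice (strain label C57BL/6NCrl) aged 8 to 9 weeks at the start, with 1 library per mouse. Except for Sham mice, all received a closed head injury, in which the intact skull is struck, and were treated through an injection into the left hippocampus on day 5. PBS mice received phosphate-buffered saline, MSC mice 150000 mesenchymal stromal cells (MSCs), and IL-4 MSC mice 150000 MSCs transfected with synthetic mRNA of interleukin-4 (IL-4), a cytokine that drives alternative activation of macrophages. Tissue was collected at 1 week post-injury (wpi), which is 2 days after treatment, or at 3 wpi, which is 16 days after treatment. Sham mice were neither injured nor injected, and the 2 collected at 1 week and the 3 collected at 3 weeks were kept as 1 group. Every group had 5 mice except PBS at 3 wpi with 4, since the authors left out 1 further library of that group. The comparisons with Sham therefore hold injury, injection and treatment together, and the Sham group cannot show what the injection alone did. No group here received MSCs transfected with another mRNA. The comparisons of IL-4 MSCs with MSCs therefore hold transfection and IL-4 together. The MSCs came from mice of the C57BL/6N strain, so transcripts of injected cells and of the host cannot be told apart. The bracketed number in each sample title is shared within a treated group and differs between groups, so whatever it stands for cannot be told apart from the group.

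Libraries held between 29838316 and 41554249 estimated counts. Levels are given as CPM, which are counts scaled by the library total, and 3 counts, taken as the lowest level that can be told from 0, corresponded to 0.0722 to 0.101 CPM. That floor covers counting error only. The deposited TPM values also correct for transcript length and are used here wherever levels of different genes are compared. The test was the two-sided quasi-likelihood F test of edgeR, and a gene was called when its Benjamini-Hochberg adjusted p over the 17131 genes tested was under 0.05. Differences are log2 fold changes with their standard error (SE). All 10 genes passed the filter on low counts, but Mmp3, Mmp12 and Mmp13 were close to the floor in Sham and passed through the groups in which they were high, so their counts of calls are not independent of that filter.

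The label of the tissue is brain left cortex, and the cortex markers were present, with Slc17a7 the most abundant at a mean of 1009.9 CPM in Sham. Hippocampus markers (summed mean 513 CPM in Sham) and striatum markers (summed mean 589 CPM in Sham) were present too. Striatum markers were uneven, between 232 and 919 CPM in Sham mice and between 402 and 2682 CPM in IL-4 MSC mice at 3 wpi, whose mean was 1655 CPM, with Pde10a the most abundant. When the striatum score was added to the fit, the fall of Mmp3 from 1 to 3 wpi in IL-4 MSCs was not called (-1.91, adjusted p = 0.0662), Mmp13 was called in PBS against Sham at 1 wpi (2.62, adjusted p = 0.0488), and Mmp12 remained called in IL-4 MSCs against Sham at 3 wpi (3.71, adjusted p = 0.0375). Their part was not tested otherwise.

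A few libraries stood apart for several genes. Replicate 2 of PBS at 3 wpi held 48 of the 49 Mmp3 counts of its group and had 118 CPM of summed macrophage markers against 37.7 to 50.2 CPM in the other 3 mice. Replicate 2 of MSCs at 1 wpi had the highest Mmp3, Mmp9, Mmp12 and Timp1 of its group together with 22.9 CPM of summed neutrophil markers, against 10.7 to 14.0 CPM in the other 4 mice. Replicate 4 of MSCs at 3 wpi had the highest Mmp9, Mmp19 and Timp1 of its group, 22.2 CPM of neutrophil markers and the lowest median correlation with its own group, 0.984. Where a call among the 10 genes ended or appeared without 1 of these mice, both values are given.

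At 1 wpi Mmp3, Mmp12, Mmp19 and Timp1 were higher than Sham in all injured groups, and the IL-4 MSC mice held the highest mean of every gene except Mmp2. IL-4 MSCs had 9 of the 10 genes higher than Sham, all but Timp2, where 37.0% of all genes tested were called in either direction. In MSCs 6 genes were higher than Sham (Mmp2, Mmp3, Mmp12, Mmp14, Mmp19 and Timp1; 17.8% of all genes called), and in PBS 4 genes were higher (Mmp3, Mmp12, Mmp19 and Timp1; 13.8% called). These 3 comparisons share the Sham mice. The median log2 fold change over the 10 genes was 1.49 for IL-4 MSCs, 0.97 for MSCs and 0.67 for PBS, where the median over all genes tested was -0.02, -0.01 and -0.01.

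Against PBS of the same week, IL-4 MSCs had 6 genes higher (Mmp9, Mmp12, Mmp13, Mmp14, Mmp19 and Timp1; 17.4% of all genes called) with a median of 0.90. Against MSCs they had 4 higher (Mmp12, Mmp13, Mmp19 and Timp1; 8.69% called) with a median of 0.66. Between MSCs and PBS at 1 wpi edgeR called 0 of the 10 genes and DESeq2 called 0, with 3 at an unadjusted p under 0.05 in edgeR, and 0.123% of all genes were called. In bulk tissue, more cells of a kind and more RNA per cell cannot be told apart for any of these genes.

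At 3 wpi fewer genes were called, which does not show that the differences had ended. In IL-4 MSCs 1 gene was higher than Sham, Mmp12, with 4.27% of all genes called. For MSCs against Sham edgeR called 0 genes with 4 at an unadjusted p under 0.05, and DESeq2 called 1, Mmp12 (1.15% of all genes called). For PBS against Sham edgeR and DESeq2 both called 0, with 3 at an unadjusted p under 0.05 (0.0292% called). Between the treatments at 3 wpi edgeR called 0 genes in each pair. IL-4 MSCs against PBS had 1 gene at an unadjusted p under 0.05 and 0 by DESeq2 (2.94% of all genes called), IL-4 MSCs against MSCs had 3 and 1 by DESeq2, which was Mmp3 (3.47% called), and MSCs against PBS had 1 and 0 by DESeq2 (0.0817% called). With the striatum score in the fit, IL-4 MSCs at 3 wpi had 114 of all genes called against Sham, 9 against PBS and 1 against MSCs. Without it these were 732, 504 and 594, and with only the 2 groups compared 102, 0 and 0. For MSCs against Sham at 3 wpi 201 were called with the score and 197 without.

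From 1 to 3 wpi, 9 genes fell in IL-4 MSCs, all but Timp2 (33.0% of all genes called), with a median log2 fold change of -1.57. In MSCs and in PBS 2 genes fell, Mmp19 and Timp1 in both (6.15% and 5.51% of all genes called). The count in MSCs ranged from 1 to 5 on leaving out 1 library and was 5 with DESeq2, which added Mmp2, Mmp3 and Mmp14, and that in PBS ranged from 1 to 3 and in IL-4 MSCs from 6 to 10 on leaving out 1 library. The 1 wpi difference minus the 3 wpi difference tests whether a treatment effect changed between the weeks. It was above 0 in 3 genes for IL-4 MSCs against PBS (Mmp13, Mmp14 and Mmp19; 4.72% of all genes called) and in 3 for IL-4 MSCs against MSCs (Mmp13, Mmp19 and Timp1; 7.86% called). For MSCs against PBS edgeR and DESeq2 called 0, with 2 at an unadjusted p under 0.05, and 0% of all genes were called. For the other genes a difference called at 1 wpi and not at 3 wpi was not called as a change between the weeks, with Mmp9 against PBS near the threshold (1.04, adjusted p = 0.0531).

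**Figure D1:**
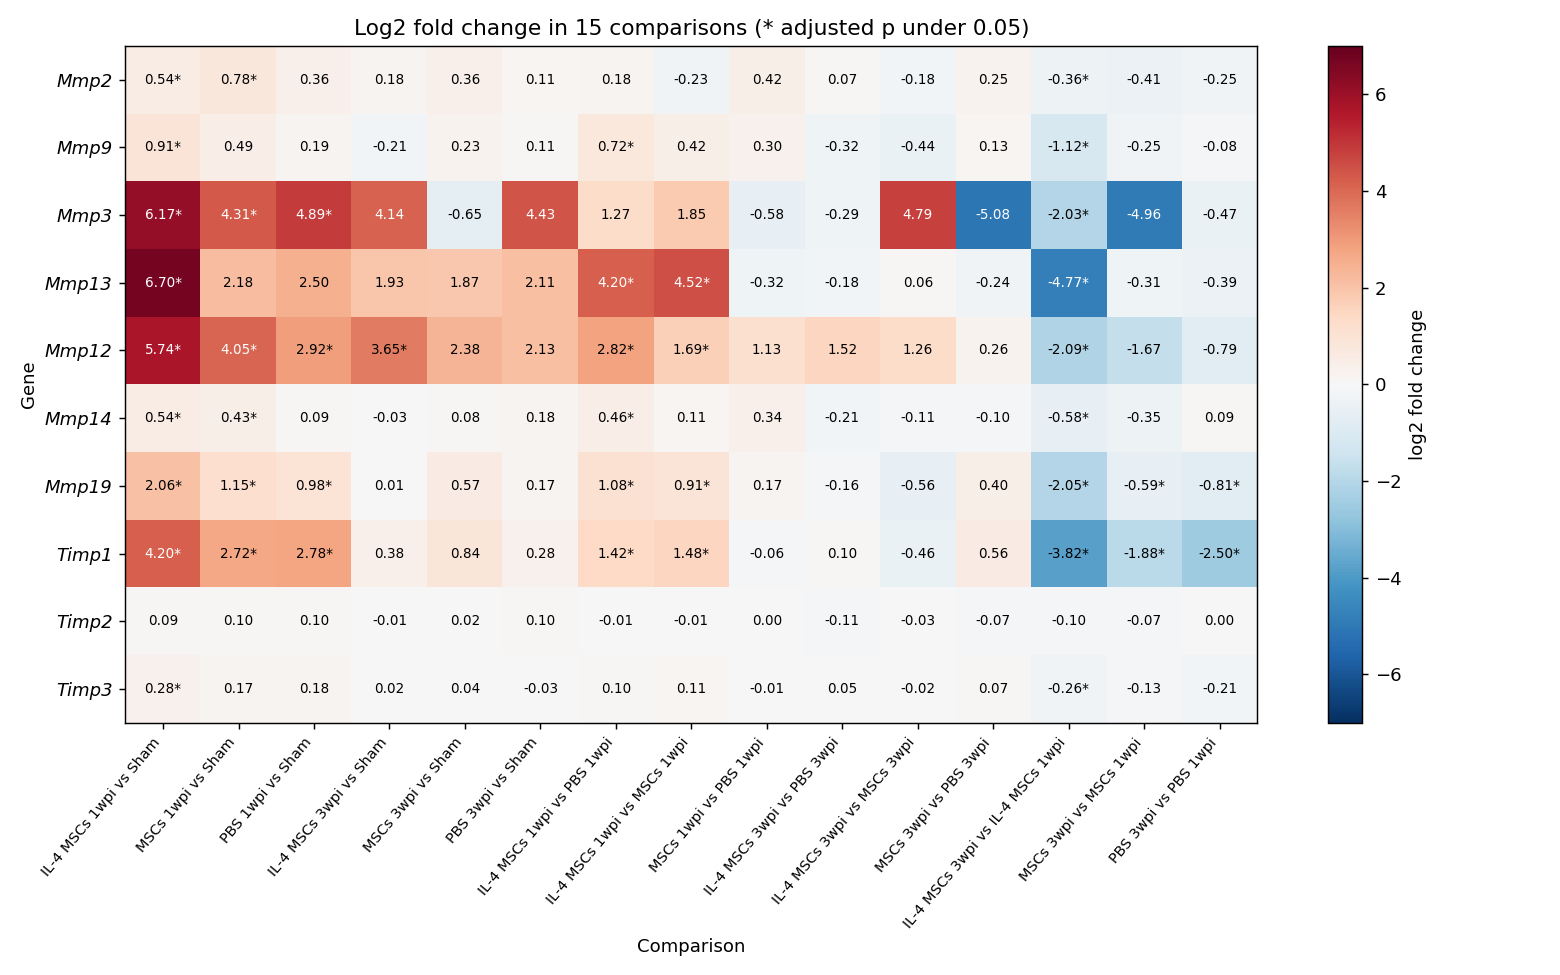
Heat map of the log2 fold change of the 10 genes (vertical axis) in the comparisons (horizontal axis), with an asterisk where the adjusted p over 17131 genes was under 0.05. IL-4 MSCs against Sham at 1 wpi has 9 asterisks, with the highest value 6.70 for Mmp13, and none of the treatment comparisons at 3 wpi has one; fold changes of Mmp3 against Sham and against MSCs at 3 wpi rest on 2 and 1 counts and depend on the prior count of the fit.

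The gelatinases Mmp2 and Mmp9 cut denatured collagen and type IV collagen of the basement membrane. Mmp9 (ENSMUSG00000017737, chromosome 2, 164940780 to 164955850, plus strand, GRCm38) is stored in neutrophil granules and made by activated glia and endothelium. Its levels in replicates 0 to 4 of Sham were 1.70, 1.66, 1.14, 1.41 and 1.65 CPM. PBS at 1 wpi had 1.58, 1.82, 2.59, 1.26 and 1.59 CPM, MSCs had 2.19, 1.76, 2.83, 2.29 and 1.91 CPM, and IL-4 MSCs had 2.78, 3.62, 2.85, 3.07 and 2.64 CPM. Every IL-4 MSC mouse lay above every PBS mouse and every Sham mouse, while its lowest mice overlapped the highest MSC mouse. At 3 wpi the 4 PBS mice had 1.38 to 1.97 CPM and the IL-4 MSC mice 0.939 to 1.68 CPM. The MSC mice had 1.01 to 1.63 CPM with the exception of replicate 4 at 3.36 CPM. In order of the means, IL-4 MSCs at 1 wpi (2.99 ± 0.383 CPM, SD, n = 5) came first, then MSCs at 1 wpi (2.20 ± 0.411), and the remaining groups lay between 1.32 and 1.80 CPM, with overlap between all neighbors. Mmp9 was higher with IL-4 MSCs than in Sham (log2 fold change 0.91, SE 0.21 and adjusted p = 0.001) and than in PBS (0.72, SE 0.21 and adjusted p = 0.0158), and it fell by 1.12 (SE 0.22 and adjusted p = 0.000136) from 1 to 3 wpi in IL-4 MSCs. Leaving out replicate 1 of IL-4 MSCs ended the call against PBS (0.66, adjusted p = 0.0514). Without replicate 4 of MSCs at 3 wpi, Mmp9 also fell from 1 to 3 wpi in MSCs (-0.61, adjusted p = 0.0353, against -0.25 and 0.606 with it). The IL-4 MSC effect on Mmp9 against PBS was not called as larger at 1 than at 3 wpi (1.04, adjusted p = 0.0531), but it was with DESeq2 (1.06, adjusted p = 0.0276), without TMM (1.08, adjusted p = 0.0400) and in 4 of the 19 fits that left out 1 mouse. Against MSCs that contrast was 0.86 (adjusted p = 0.0788) for Mmp9 and was called only without MSC replicate 3 at 3 wpi (1.04, adjusted p = 0.0232).

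Mmp2 (ENSMUSG00000031740, chromosome 8, 92827291 to 92853420, plus strand) is made mainly by mesenchymal cells and astrocytes and is activated at the cell surface by Mmp14 with the help of Timp2. Sham mice had 2.84, 3.06, 3.57, 3.07 and 3.51 CPM and PBS mice at 1 wpi had 3.83, 4.54, 4.61, 4.26 and 3.86 CPM. MSC mice at 1 wpi had 7.33, 6.52, 5.65, 4.06 and 4.79 CPM, and IL-4 MSC mice had 5.40, 5.40, 4.07, 4.56 and 5.13 CPM. Mmp2 was thus the gene whose highest mean was in MSCs (5.67 ± 1.31 CPM, SD, n = 5) and not in IL-4 MSCs (4.91 ± 0.580), although both overlapped (adjusted p = 0.357 for their difference). All injured mice at 1 wpi lay above all Sham mice. The 3 wpi groups spanned 2.54 to 4.79 CPM and overlapped Sham. Mmp2 was higher than Sham in MSCs (0.78, SE 0.14 and adjusted p = 0.000114) and with IL-4 MSCs (0.54, SE 0.14 and adjusted p = 0.00239), and in PBS it was not called (0.36, adjusted p = 0.0881) except with only the 2 groups compared (0.36, adjusted p = 0.0357). It fell by 0.36 (SE 0.14 and adjusted p = 0.044) in IL-4 MSCs between the weeks. That fall was not called without replicate 0, 1 or 4 at 1 wpi or replicate 0, 3 or 4 at 3 wpi, with log2 fold changes from -0.40 to -0.29 and adjusted p up to 0.134 among these 6 fits, nor without the filter on low counts (-0.36, adjusted p = 0.0526). In MSCs the change of Mmp2 was -0.41 (adjusted p = 0.0711), and it was called by DESeq2 (-0.42, adjusted p = 0.0476), without TMM (-0.45, adjusted p = 0.0432) and without replicate 3 (-0.52, adjusted p = 0.0166) or 4 (-0.46, adjusted p = 0.0479) at 1 wpi.

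Mmp3, stromelysin-1 (ENSMUSG00000043613, chromosome 9, 7445822 to 7455975, plus strand), degrades proteoglycans, laminin and fibronectin and activates other pro-MMPs. It was nearly absent from uninjured tissue, with 0, 1, 0, 0 and 1 counts in Sham. PBS mice at 1 wpi had 7, 18, 32, 6 and 14 counts, MSC mice 8, 3, 36, 3 and 3, and IL-4 MSC mice 50, 25, 55, 24 and 33. Every injured mouse at 1 wpi held more Mmp3 than any Sham mouse, but 3 of the 5 MSC mice were at the floor of 3 counts and IL-4 MSCs overlapped both other treatments. At 3 wpi the counts were 0, 0, 48 and 1 in PBS, 0, 0, 0, 0 and 1 in MSCs, and 3, 23, 0, 3 and 17 in IL-4 MSCs. Most mice collected at 3 wpi were thus at or under the floor, apart from 1 PBS mouse and 2 IL-4 MSC mice.

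Since Sham held 2 Mmp3 counts over all 5 mice, the ratio of summed counts per library size is given with its exact 95% interval, which covers counting error only. The ratio to Sham was 98.0 (26.8 to 815) in IL-4 MSCs, 39.5 (10.6 to 332) in PBS and 27.4 (7.21 to 232) in MSCs at 1 wpi. At 3 wpi it was 30.5 (7.99 to 259) in PBS, 22.9 (5.99 to 195) in IL-4 MSCs and 0.528 (0.00895 to 10.1) in MSCs. The PBS ratio at 3 wpi came from a single mouse. By edgeR, Mmp3 was higher than Sham at 1 wpi in IL-4 MSCs (6.17, SE 1.21 and adjusted p = 0.000119), PBS (4.89, SE 1.36 and adjusted p = 0.0129) and MSCs (4.31, SE 1.44 and adjusted p = 0.0349). Against the Sham mice of the same week alone, Mmp3 was called neither in PBS (4.76, adjusted p = 0.110) nor in MSCs (4.18, adjusted p = 0.161). The call in MSCs was also lost without replicate 2 (3.08, adjusted p = 0.240) and without Sham replicate 0, 1, 2 or 3 (4.07 to 4.76, adjusted p from 0.0624 to 0.0772). Without MSC replicate 2, Mmp3 was higher with IL-4 MSCs than in MSCs at 1 wpi (3.08, adjusted p = 0.0138), where with it the value was 1.85 (adjusted p = 0.122). Against PBS, Mmp3 in IL-4 MSCs was called only when the fit held just these 2 groups (1.28, adjusted p = 0.0445). Mmp3 fell by 2.03 (SE 0.74 and adjusted p = 0.0326) from 1 to 3 wpi in IL-4 MSCs. That call was lost without replicate 0 or 2 at 1 wpi or replicate 0, 2 or 3 at 3 wpi (-1.90 to -1.77, adjusted p from 0.0714 to 0.0853), with DESeq2 (-2.05, adjusted p = 0.104) and with the striatum covariate (-1.91, adjusted p = 0.0662). In MSCs the change between the weeks was -4.96 (adjusted p = 0.0599) without overlap of the mice, and it was called by DESeq2 (-5.12, adjusted p = 0.00408) and without replicate 4 at 1 wpi (-5.18, adjusted p = 0.0486). In PBS Mmp3 was not called between the weeks (-0.47, adjusted p = 0.854), and without replicate 2 at 3 wpi it was (-5.03, adjusted p = 0.0249).

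Mmp13 (collagenase-3, ENSMUSG00000050578, chromosome 9, 7272514 to 7283331, plus strand) cuts fibrillar collagens. In Sham mice it had 1, 2, 3, 0 and 1 counts, all at or under the floor. PBS mice at 1 wpi had 3, 17, 17, 3 and 3 counts and MSC mice 1, 8, 13, 8 and 4. IL-4 MSC mice had 121, 270, 195, 167 and 51 counts, which is 4.06, 7.63, 5.67, 5.18 and 1.51 CPM. The lowest IL-4 MSC mouse was thus above the highest mouse of any other group, which was a PBS mouse of the same week at 0.544 CPM. At 3 wpi IL-4 MSC mice had 5, 5, 1, 4 and 14 counts, PBS mice 6, 1, 17 and 3, and MSC mice 4, 3, 15, 1 and 3. No 3 wpi group held a mouse above 17 counts, and all 6 groups other than IL-4 MSCs at 1 wpi overlapped their neighbors in the order of means.

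Mmp13 was higher in IL-4 MSCs (4.81 ± 2.25 CPM, SD, n = 5) than in Sham (6.70, SE 0.66 and adjusted p = 7.58e-10), in PBS (4.20, SE 0.51 and adjusted p = 2.01e-07) and in MSCs (4.52, SE 0.52 and adjusted p = 1.53e-07). Against Sham it was not called in PBS (2.50, adjusted p = 0.0586) or in MSCs (2.18, adjusted p = 0.108), which were both called by DESeq2 (2.58, adjusted p = 0.0159, and 2.27, adjusted p = 0.0365). Over the alternatives of the PBS comparison that made this call, among them the fits without PBS replicate 0, 3 or 4 (adjusted p = 0.0438, 0.0458 and 0.0404), the log2 fold change was 2.44 to 2.71. From 1 to 3 wpi Mmp13 fell by 4.77 (SE 0.54 and adjusted p = 1.7e-08) in IL-4 MSCs. The IL-4 MSC effect was larger at 1 than at 3 wpi against PBS (4.38, SE 0.95 and adjusted p = 0.00446) and against MSCs (4.46, SE 0.96 and adjusted p = 0.00272). Each of these contrasts was lost on leaving out the highest 3 wpi mouse of the other group, to 3.51 (adjusted p = 0.115) without PBS replicate 2 and to 3.56 (adjusted p = 0.0530) without MSC replicate 2.

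Mmp12, the macrophage metalloelastase (ENSMUSG00000049723, chromosome 9, 7344381 to 7369499, plus strand), cuts elastin and many other matrix proteins. Sham mice had 0.0279, 0.120, 0.0325, 0.0922 and 0.0915 CPM, from 1 to 5 counts. At 1 wpi PBS mice had 0.348, 0.687, 1.22, 0.537 and 0.236 CPM, MSC mice 0.972, 0.742, 2.80, 1.10 and 1.03 CPM, and IL-4 MSC mice 4.42, 6.30, 3.11, 6.17 and 1.99 CPM. All injured groups at 1 wpi lay above Sham without overlap, IL-4 MSCs also lay above PBS, and the lowest IL-4 MSC mouse lay below the highest MSC mouse. At 3 wpi PBS mice had 0.246, 0.257, 0.651 and 0.164 CPM, MSC mice 0.163 to 0.926 CPM, and IL-4 MSC mice 2.44, 1.32, 0.224, 0.107 and 0.838 CPM. PBS and MSCs at 3 wpi still did not overlap Sham although they were not called, and IL-4 MSCs spread over more than the whole range of both.

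Mmp12 was higher than Sham in IL-4 MSCs (5.74, SE 0.70 and adjusted p = 5.47e-08), MSCs (4.05, SE 0.75 and adjusted p = 0.000167) and PBS (2.92, SE 0.82 and adjusted p = 0.0137) at 1 wpi, and in IL-4 MSCs at 3 wpi (3.65, SE 0.77 and adjusted p = 0.00618). It was also higher with IL-4 MSCs than in PBS (2.82, SE 0.52 and adjusted p = 0.000162) and than in MSCs (1.69, SE 0.48 and adjusted p = 0.0195) at 1 wpi. Without MSC replicate 2, the highest of its group, Mmp12 was 3.58 (adjusted p = 0.00123) for MSCs against Sham and 2.16 (adjusted p = 0.00392) for IL-4 MSCs against MSCs. With all mice the latter was close to the threshold. The call against MSCs was lost in 6 of the 10 fits that left out 1 mouse (MSC replicate 0, 1, 3 or 4, or IL-4 MSC replicate 1 or 3), with 1.54 to 1.64 and adjusted p up to 0.0655. The PBS call was lost without PBS replicate 2 (2.52, adjusted p = 0.0527). Against the Sham mice of that week alone, Mmp12 was not called in PBS at 1 wpi (2.87, adjusted p = 0.109) or in IL-4 MSCs at 3 wpi (3.69, adjusted p = 0.0632). Between 1 and 3 wpi it fell by 2.09 (SE 0.49 and adjusted p = 0.00115) in IL-4 MSCs. The change in MSCs was not called (-1.67, adjusted p = 0.0823) except without replicate 0 at 3 wpi (-2.20, adjusted p = 0.0332). Mmp12 overlaps the end of Mmp1b on the opposite strand, and Mmp1b had at most 1 count in any library.

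Mmp13, Mmp12 and Mmp3 lie close together in a cluster of 10 MMP genes that spans 427 kb of chromosome 9 (7272514 to 7699585). Besides these 3, only Mmp8, the neutrophil collagenase, passed the filter on low counts, and all 4 were higher with IL-4 MSCs than with Sham at 1 wpi (Mmp8 4.58, SE 0.67 and adjusted p = 1.65e-06). All 4 had 0 to 5 counts in each Sham mouse, so they could pass the filter through other groups alone. Mmp8 had 1.14, 1.22, 0.902, 2.02 and 0.949 CPM in IL-4 MSC mice and at most 0.122 CPM in Sham. In the other groups it reached 0.448 CPM in PBS and 1.06 CPM in MSCs at 1 wpi. Mmp27 was not tested, with 0 counts in each Sham mouse and at most 16 counts in any library, and Mmp10, Mmp7 and Mmp20 reached at most 2, 2 and 4 counts. Values for Mmp1a were not used here.

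**Figure D2:**
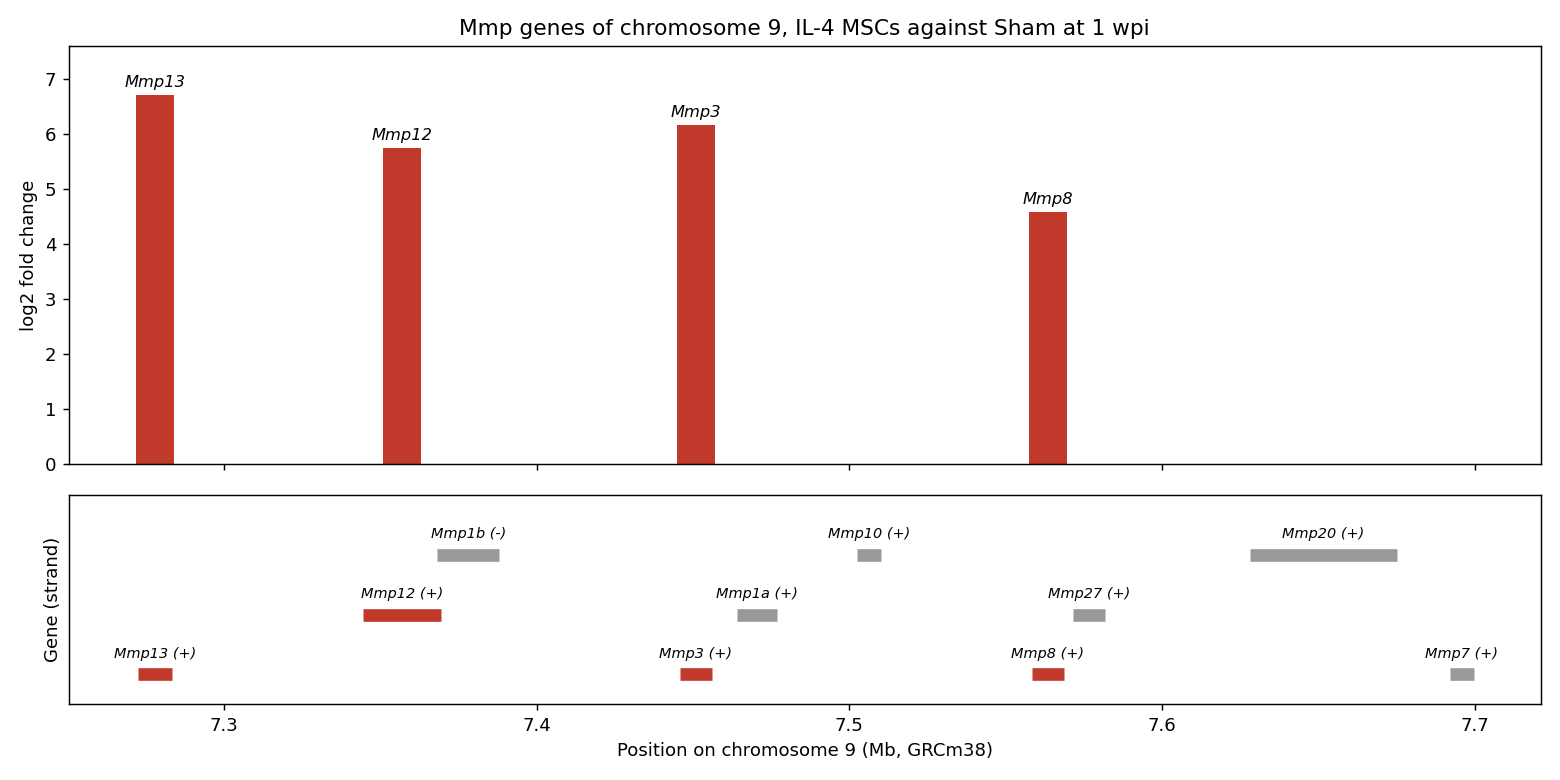
Map of the chromosome 9 MMP cluster (GRCm38 position on the horizontal axis) with the log2 fold change of IL-4 MSCs against Sham at 1 wpi on the vertical axis for the 4 genes tested. Mmp13 (6.70), Mmp3 (6.17), Mmp12 (5.74) and Mmp8 (4.58) were all higher, and the other genes of the cluster were not tested.

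Promoters of 7 of the 10 genes were matched in the RefSeq table (GRCm38.p6); Mmp2, Mmp9 and Mmp19 were not matched. The letters TGANTCA, the core of the AP-1 motif, were searched on both strands in the 250 bases before each start, and 6.75% of 32851 promoters hold them. Mmp13 has 1 match 35 bases before its start and Mmp3 has 1 match 46 bases before. In Mmp12 the entry nearest to the annotated start has 0 matches, and a further entry inside the gene has 1 match 44 bases before its start. The other 4 matched genes, Mmp14, Timp1, Timp2 and Timp3, have 0. The core of the ETS motif, AGGAAG, is in 29.5% of promoters, with 2 matches each in Mmp13 and Timp1, 1 each in Mmp3, Mmp14, Timp3 and the first Mmp12 entry, and 0 in Timp2. TTCNNNNGAA, a spacing known for STAT6, the factor activated by the IL-4 receptor, is in 5.85% of promoters and has 0 matches in the 7 genes. A match is a description of these letters and not of a bound site, and 0 matches say only that the letters are not in this window. The 120 bases before the start of the 3 genes of this cluster described above are printed 5′ to 3′ on the plus strand because these genes of 1 cluster were all called in IL-4 MSCs against Sham at 1 wpi, with the AP-1 letters in capitals, from chr9:7272394-7272513, chr9:7344277-7344396 and chr9:7445702-7445821. For Mmp12 the RefSeq start is 7344397, which lies inside the gene as annotated by GENCODE, so the last bases printed are past the GENCODE start of 7344381.
Mmp13: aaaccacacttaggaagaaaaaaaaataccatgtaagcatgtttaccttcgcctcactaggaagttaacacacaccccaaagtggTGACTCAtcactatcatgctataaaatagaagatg
Mmp12: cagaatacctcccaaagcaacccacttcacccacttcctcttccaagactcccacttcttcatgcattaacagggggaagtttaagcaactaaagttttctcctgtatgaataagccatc
Mmp3: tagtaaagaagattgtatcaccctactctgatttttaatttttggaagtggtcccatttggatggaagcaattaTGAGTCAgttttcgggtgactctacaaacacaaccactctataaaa

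Mmp14 (membrane-type 1 MMP, ENSMUSG00000000957, chromosome 14, 54431612 to 54445364, plus strand) is anchored in the cell membrane, cuts collagen and activates pro-Mmp2. Among the 7 MMP genes described here it was the most abundant per length, with a mean of 16.1 TPM in Sham. There it made up 76.7% of the TPM of these 7 genes. Sham mice had 18.5, 19.2, 16.6, 18.7 and 19.0 CPM and PBS mice at 1 wpi 21.4, 20.7, 23.4, 17.9 and 16.9 CPM. MSC mice had 33.8, 27.1, 24.9, 23.5 and 19.0 CPM and IL-4 MSC mice 33.6, 30.2, 26.7, 26.5 and 24.2 CPM. IL-4 MSC mice lay above all Sham and PBS mice and overlapped MSC mice, while the lowest MSC mouse was level with Sham. The 3 wpi groups spanned 15.3 to 23.1 CPM and overlapped Sham. Mmp14 was higher than Sham in IL-4 MSCs (0.54, SE 0.11 and adjusted p = 0.000301) and MSCs (0.43, SE 0.11 and adjusted p = 0.00727), and higher with IL-4 MSCs than in PBS (0.46, SE 0.11 and adjusted p = 0.00468). The call in MSCs was lost against the 2 Sham mice of that week alone (0.39, adjusted p = 0.0846). The change between the weeks in MSCs was -0.35 (adjusted p = 0.0635) and was called by DESeq2 (-0.35, adjusted p = 0.0389), without TMM (-0.39, adjusted p = 0.0367) and without replicate 4 at 1 wpi (-0.44, adjusted p = 0.0119). In IL-4 MSCs Mmp14 fell by 0.58 (SE 0.11 and adjusted p = 0.000193) between the weeks, and the difference from PBS was larger at 1 than at 3 wpi (0.67, SE 0.17 and adjusted p = 0.0142).

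Mmp19 (ENSMUSG00000025355, chromosome 10, 128790910 to 128800824, plus strand) cuts basement membrane components such as type IV collagen, laminin and nidogen. The 5 Sham mice had 1.56, 1.28, 1.49, 1.26 and 1.77 CPM. At 1 wpi PBS mice had 2.95, 3.71, 3.33, 2.78 and 2.12 CPM, MSC mice 4.00, 3.25, 2.83, 3.80 and 3.07 CPM, and IL-4 MSC mice 6.40, 6.19, 8.41, 6.86 and 4.54 CPM. The levels separated without overlap, with Sham lowest, PBS and MSCs together in the middle and IL-4 MSCs highest. At 3 wpi PBS mice had 1.86, 0.966, 1.88 and 1.97 CPM, MSC mice 2.17, 2.13, 2.00, 1.90 and 2.79 CPM, and IL-4 MSC mice 1.40, 2.04, 1.02, 1.56 and 1.44 CPM. IL-4 MSC mice then overlapped Sham, and the MSC mice all lay above Sham without a call (0.57, adjusted p = 0.155).

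Of all 10 genes, Mmp19 was called in the most comparisons when the 1 wpi difference minus the 3 wpi difference is counted too. Without those contrasts, Mmp19 and Timp1 were called in the same comparisons. Against Sham it was higher in IL-4 MSCs (2.06, SE 0.18 and adjusted p = 4.89e-11), MSCs (1.15, SE 0.18 and adjusted p = 1.78e-05) and PBS (0.98, SE 0.18 and adjusted p = 0.000246). IL-4 MSCs exceeded PBS (1.08, SE 0.17 and adjusted p = 1.4e-05) and MSCs (0.91, SE 0.17 and adjusted p = 0.000218). It fell between the weeks by 2.05 (SE 0.18 and adjusted p = 1.14e-10) in IL-4 MSCs, by 0.81 (SE 0.19 and adjusted p = 0.00728) in PBS and by 0.59 (SE 0.18 and adjusted p = 0.0385) in MSCs. The fall in MSCs was not called in 7 of the 10 fits without 1 mouse (replicate 0, 1 or 3 at 1 wpi or replicate 0, 1, 2 or 3 at 3 wpi; -0.61 to -0.52, adjusted p from 0.0531 to 0.115), and that in PBS was lost without replicate 1 at 3 wpi (-0.64, adjusted p = 0.0587) and with only the 2 groups compared (-0.81, adjusted p = 0.0642). The effect of IL-4 MSCs was larger at 1 than at 3 wpi against PBS (1.24, SE 0.26 and adjusted p = 0.00327) and against MSCs (1.46, SE 0.25 and adjusted p = 0.000204), and these contrasts were called in all 19 and all 20 fits that left out 1 mouse. Without replicate 1 of IL-4 MSCs at 3 wpi, Mmp19 was also lower with IL-4 MSCs than with MSCs at 3 wpi (-0.69, adjusted p = 0.0179, against -0.56 and 0.0900 with it).

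Among the inhibitors, Timp1 (ENSMUSG00000001131, X chromosome, 20870166 to 20874735, plus strand) is a secreted protein that is induced by inflammatory cytokines in astrocytes and other cells and binds the proenzyme of Mmp9. Sham mice had 1.06, 0.914, 0.942, 1.26 and 1.43 CPM. At 1 wpi PBS mice had 3.55, 10.8, 10.6, 6.89 and 7.54 CPM, MSC mice 6.75, 5.97, 14.6, 6.03 and 4.73 CPM, and IL-4 MSC mice 25.5, 23.9, 24.9, 16.9 and 17.1 CPM. No IL-4 MSC mouse of that week overlapped any mouse of another group, and every injured mouse at 1 wpi lay above every Sham mouse and every mouse at 3 wpi. At 3 wpi PBS mice had 0.902, 1.45, 1.81 and 1.31 CPM, MSC mice 1.56, 2.41, 1.19, 1.77 and 3.13 CPM, and IL-4 MSC mice 0.980, 2.54, 0.894, 1.40 and 1.55 CPM. These overlapped Sham in each case.

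The mean of Timp1 in IL-4 MSCs at 1 wpi was 21.7 ± 4.31 CPM (SD, n = 5), against 7.89 ± 3.01 in PBS, 7.61 ± 3.95 in MSCs and 1.12 ± 0.221 in Sham. Timp1 was higher than Sham in IL-4 MSCs (4.20, SE 0.33 and adjusted p = 4.62e-12), PBS (2.78, SE 0.33 and adjusted p = 2.85e-07) and MSCs (2.72, SE 0.33 and adjusted p = 2.55e-07), and higher with IL-4 MSCs than in PBS (1.42, SE 0.27 and adjusted p = 0.000254) and MSCs (1.48, SE 0.27 and adjusted p = 0.000207). Without MSC replicate 2 the values for Timp1 were 2.34 (adjusted p = 9.66e-07) for MSCs against Sham and 1.86 (adjusted p = 4.49e-06) for IL-4 MSCs against MSCs. From 1 to 3 wpi it fell by 3.82 (SE 0.32 and adjusted p = 3.96e-11) in IL-4 MSCs, by 2.50 (SE 0.34 and adjusted p = 1.43e-05) in PBS and by 1.88 (SE 0.30 and adjusted p = 0.000108) in MSCs. IL-4 MSCs differed more from MSCs at 1 than at 3 wpi (1.94, SE 0.43 and adjusted p = 0.00387). For PBS that contrast was not called (1.32, adjusted p = 0.102), but it was by DESeq2 (1.33, adjusted p = 0.0462) and without replicate 1 of IL-4 MSCs at 3 wpi (1.62, adjusted p = 0.0283). Timp1 lies inside Syn1, a gene on the opposite strand that neurons express, without overlapping a Syn1 exon.

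Timp2 (ENSMUSG00000017466, chromosome 11, 118301069 to 118355740, minus strand) inhibits most MMPs and takes part in activating pro-Mmp2. It was the most abundant of the 10 genes per length, with a mean of 183 TPM in Sham and 209 TPM in IL-4 MSCs at 1 wpi. Its CPM spanned 278 to 328 in Sham and 328 to 354 in IL-4 MSCs at 1 wpi, and all groups overlapped their neighbors. Timp2 was the only one of the 10 genes called in none of the comparisons (0.09 for IL-4 MSCs against Sham, SE 0.05 and adjusted p = 0.204). It was called without TMM factors (0.16, adjusted p = 0.0261), with only the 2 groups compared (0.12, adjusted p = 0.0391) and without Sham replicate 1 (0.15, adjusted p = 0.0448). Between the weeks in IL-4 MSCs, Timp2 was not called (-0.10, adjusted p = 0.163) but was lower without replicate 0 (-0.20, adjusted p = 0.00260) or replicate 1 (-0.16, adjusted p = 0.0290) at 3 wpi, and without TMM (-0.16, adjusted p = 0.0305).

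Timp3 (ENSMUSG00000020044, chromosome 10, 86300372 to 86349506, plus strand) is bound to the matrix and inhibits ADAM enzymes as well as MMPs. Sham mice had 118 to 170.3 CPM and IL-4 MSC mice at 1 wpi 165 to 189 CPM, with a small overlap, and the other groups spanned 107 to 178 CPM. Timp3 was higher with IL-4 MSCs than in Sham (0.28, SE 0.09 and adjusted p = 0.0191) and fell by 0.26 (SE 0.09 and adjusted p = 0.032) by 3 wpi. In MSCs (0.17) and PBS (0.18) it was not called against Sham. With the 2 Sham mice of 1 week alone, Timp3 was called in all injured groups of that week, with 0.48 (adjusted p = 0.00177) for IL-4 MSCs, 0.39 (adjusted p = 0.0315) for PBS and 0.37 (adjusted p = 0.0276) for MSCs. That fall was lost without replicate 1 at 1 wpi (-0.26, adjusted p = 0.0540) or replicate 3 at 3 wpi (-0.21, adjusted p = 0.108). Timp3 lies inside Syn3 on the opposite strand and overlaps 1 of its exons. The strand setting of the authors' counting is not given in the sources used here. Reads from exons that overlap in this way therefore cannot be told apart.

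**Figure D3:**
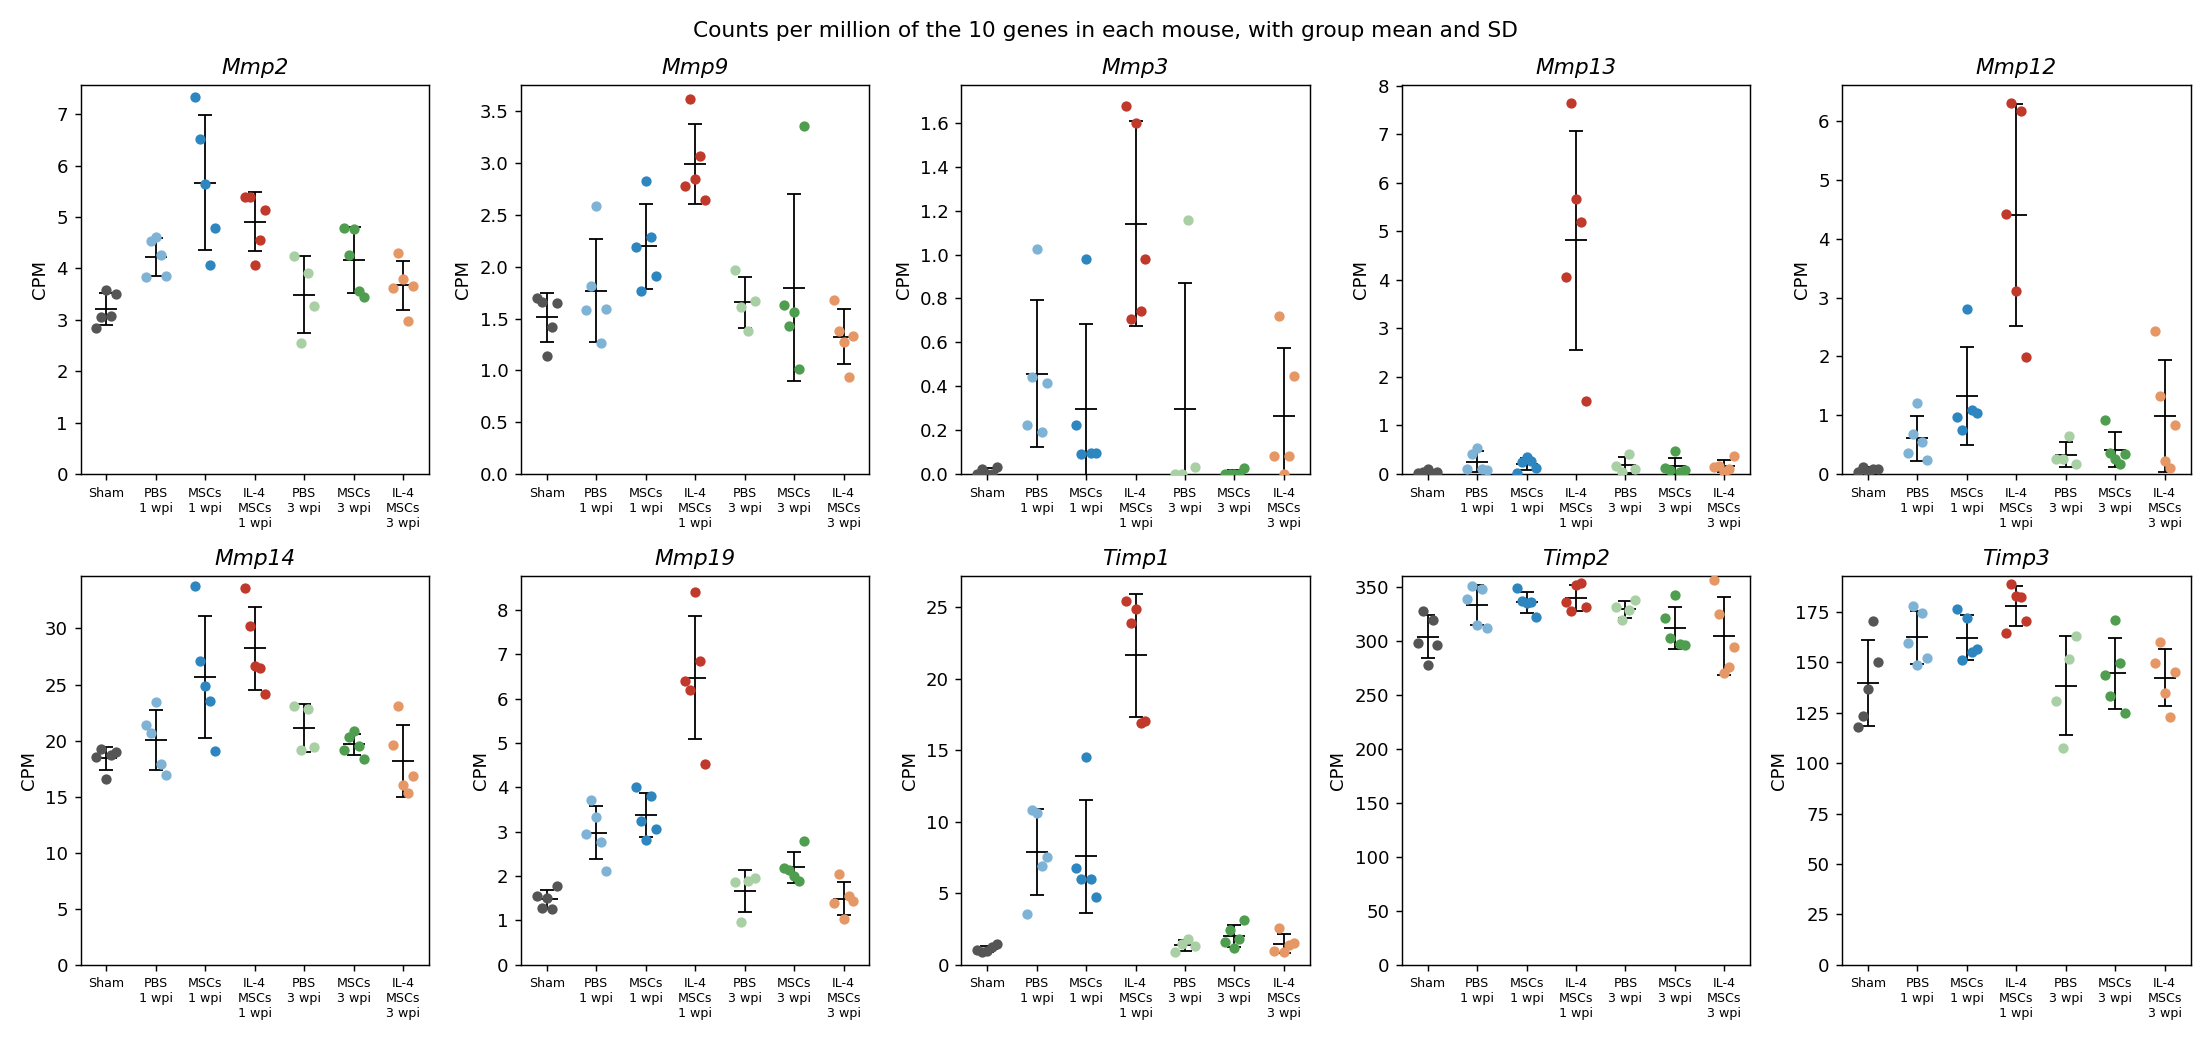
Level of each of the 10 genes in every mouse (vertical axis, CPM, starting at 0) by group (horizontal axis). Points are mice, and bars give the mean and SD of each group, cut at 0, with n = 5 and n = 4 for PBS at 3 wpi. Mmp13, Mmp19 and Timp1 of IL-4 MSCs at 1 wpi lie above all other groups, while Timp2 is level.

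The levels of both families are compared per length as a description. In Sham Timp2 (183 TPM) and Timp3 (63.3 TPM) were far above Mmp14 (16.1 TPM), Timp1 (3.53 TPM), Mmp2 (2.42 TPM), Mmp19 (1.19 TPM) and Mmp9 (1.16 TPM), and Mmp12, Mmp13 and Mmp3 were at 0.0808, 0.0332 and 0.0140 TPM. In IL-4 MSCs at 1 wpi Timp1 (65.3 TPM) came close to Timp3 (78.3 TPM), and Mmp12 (5.94 TPM), Mmp19 (4.68 TPM) and Mmp13 (3.82 TPM) exceeded Mmp2 (3.37 TPM) and Mmp9 (2.46 TPM). Timp1 made up 1.41 ± 0.263% of the TPM of the 3 inhibitors in Sham, 8.11 ± 3.04% in PBS, 7.69 ± 3.54% in MSCs and 18.4 ± 3.08% (SD, n = 5) with IL-4 MSCs. The 5 IL-4 MSC mice lay between 14.5% and 21.3%, and the highest mouse of any other group had 13.9%. Mmp14 made up 52.4 ± 4.36% of the TPM of the 7 MMP genes in IL-4 MSCs, where the 5 mice lay between 48.4% and 58.3%. It made up 65.9 ± 2.32% in PBS (62.5% to 68.5%) and 66.0 ± 4.18% in MSCs (59.9% to 71.2%), against 75.7% to 77.4% in Sham, so PBS and MSC mice also lay below Sham without overlap. The summed TPM of the 7 MMP genes was 45.3 ± 6.88 in IL-4 MSCs, 33.4 ± 4.94 in MSCs, 25.3 ± 4.95 in PBS and 21.0 ± 1.25 in Sham, and that of the 3 inhibitors was 353 ± 13.7, 298 ± 14.6, 299.5 ± 18.6 and 250.1 ± 21.8. These shares and sums were not tested.

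Other genes of the same system are given for IL-4 MSCs against Sham at 1 wpi, where 18.4% of all genes tested were higher and 18.5% lower. Of 16 other MMP genes listed, 10 were tested, 2 were higher (Mmp8 and Mmp25, 1.10) and 2 lower (Mmp17, -0.27, and Mmp24, -0.18), with a median of 0.08. Of 3 other inhibitors, the broad protease inhibitor A2m was higher (3.28, adjusted p = 1.22e-08), and Timp4 (-0.03) and Reck (0.02) were not called. A2m had 62.3 to 106 CPM in IL-4 MSC mice and 5.90 to 10.4 CPM in Sham. By edgeR A2m was also higher than Sham at 1 wpi in MSCs (2.59, adjusted p = 3.74e-06) and in PBS (2.35, adjusted p = 2.26e-05). MSC mice had 30.5 to 82.8 CPM of A2m and overlapped IL-4 MSC mice. Timp4 lies inside Syn2 on the opposite strand and overlaps 2 of its exons. Its level stayed between 25.1 and 39.3 CPM in 33 mice and was 50.1 CPM in replicate 4 of MSCs at 3 wpi. Of 17 ADAM and ADAMTS proteases 10 were higher and 0 lower (median 0.28), among them Adam8 (3.41), Adam17 (0.69), Adam10 (0.29) and Adam9 (0.28).

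In the plasminogen system, whose protease plasmin activates several pro-MMPs, 6 of 8 genes were tested, and 3 were higher and 1 lower. Among them the urokinase gene Plau (1.49, adjusted p = 1.4e-10) and its receptor Plaur (2.55) were higher and the neuronal inhibitor Serpini1 was lower (-0.34). Among 7 activators and binding partners 6 were higher, including the Mmp9-docking receptor Cd44 (2.66), the proprotein convertase Furin (0.38) and the thrombospondins Thbs1 (2.58) and Thbs2 (0.81). Genes for MMP substrates were listed by kind, and the lists were not tested against each other. In the basement membrane list 8 of 12 were higher (median 0.32), with Hspg2 (0.98), Nid1 (0.76), Col4a1 (0.69) and Lamc1 (0.29), and among 6 interstitial matrix genes 4 were higher, with Col3a1 (3.69), Col1a1 (2.18), Fn1 (2.09) and Col1a2 (1.79). Of 7 genes of the neural matrix 2 were higher (Tnc, 1.29, and Vcan, 0.54) and 3 lower, including aggrecan (Acan, -0.48) and brevican (Bcan, -0.37).

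The counts of the same lists in the other 1 wpi comparisons stand beside other shares of all genes and were not tested against each other. Against PBS, where 11.2% of all genes were higher, IL-4 MSCs had 3 of 10 other MMP genes, 7 of 17 ADAM and ADAMTS genes, 2 of 6 plasminogen genes, 4 of 7 partners, 5 of 12 basement membrane genes and 4 of 6 interstitial genes higher. Against MSCs (7.66% of all genes higher) the counts were 1, 4, 3, 2, 1 and 1. In MSCs against Sham (11% of all genes higher) they were 1, 7, 3, 3, 7 and 4, and in PBS against Sham (8.73% higher) 1, 6, 3, 2, 3 and 3. In IL-4 MSCs against Sham at 3 wpi edgeR called none of these lists' genes higher, where 2.76% of all genes were higher.

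Markers of cell types that make MMPs changed in the same mice. All 10 macrophage markers were higher with IL-4 MSCs than with Sham at 1 wpi (median 3.43; 18.4% of all genes higher), 8 of 10 were higher than in PBS (11.2% of all genes) and 8 of 10 than in MSCs (7.66%). Their summed level was 420.04 to 619.6 CPM in IL-4 MSC mice at 1 wpi, 78.2 to 174 CPM in PBS, 93.9 to 162 CPM in MSCs and 26.0 to 48.9 CPM in Sham, with Lyz2 the most abundant gene. At 3 wpi the means were 61.4 for PBS, 63.1 for MSCs and 70.0 CPM for IL-4 MSCs. The part of these markers in the levels of Mmp12, Mmp13, Mmp19 and Timp1 was not tested.

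Of 10 neutrophil markers listed, 7 were tested. At 1 wpi 1 of them, Retnlg (5.40), was higher in IL-4 MSC mice than in Sham mice, beside 18.4% of all genes. The neutrophil and macrophage lists were not tested against each other. The defining markers Ly6g and Elane were at or under the floor in every library, and the summed levels, led by Cxcr2, averaged 16.1 CPM with IL-4 MSCs against 9.72 CPM for Sham. Their part in the levels of Mmp8 and Mmp9 was not tested.

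Beside 18.4% of all genes, astrocyte markers (6 of 6) and endothelial markers (4 of 6) were higher with IL-4 MSCs than in Sham, with summed means of 2397 against 1104 CPM and 307 against 220.4 CPM. Gfap and Flt1 led these lists. Endothelial markers were also higher than in PBS and than in MSCs in 4 of 6 genes (11.2% and 7.66% of all genes higher). Astrocyte markers differed in 0 of 6 by edgeR in both (17.4% and 8.69% of all genes called). Against Sham, neuron markers were lower in 4 of 5 genes and cortex markers in 3 of 6, where 18.5% of all genes were lower. Pericyte (1 of 5), oligodendrocyte (1 of 5) and hippocampus markers (1 of 7) were lower at about that share, and choroid plexus markers, led by Ttr, were called in 0 of 5. Their part was not tested.

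Fibroblast and meningeal markers, which share Col1a1, Col1a2, Col3a1 and Dcn with the interstitial list, were higher in 4 of 7 genes and lower in 1 in IL-4 MSCs against Sham, where 18.4% of all genes were higher and 18.5% lower. At 1 wpi their summed level had the order of Mmp2, with 480.2 CPM in MSCs (332 to 755), 415 CPM in IL-4 MSCs (368 to 469), 223 CPM in PBS and 192 CPM in Sham. Posterior Hox genes, which brain tissue hardly expresses and MSCs of the body can, were listed as a trace of injected cells, but 3 of them, Hoxc9 (0.758 CPM), Hoxd9 (0.232 CPM) and Hoxc8 (0.166 CPM), were present in Sham. Their summed level in Sham was 0.947 to 1.40 CPM, so only the part above it can mark such cells. At 1 wpi it was 2.11 to 3.36 CPM in IL-4 MSCs and 2.16 to 3.68 CPM in MSCs apart from MSC replicate 2, which was within the range of Sham at 1.14 CPM, and 0.648 to 1.69 CPM in PBS. Hoxa9, Hoxa10 and Hoxc10 had 0 counts in all Sham, PBS and 3 wpi mice, and Hoxc9 was the most abundant of the list. For IL-4 MSCs against MSCs at 1 wpi edgeR called 0 of 6 Hox genes, which does not show that their levels were equal, and the part of injected cells in the levels of the MMP and TIMP genes was not tested.

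For each gene, the 3 genes most like it in log2 CPM over the 34 libraries are given as a description, since the libraries share their groups and injury. Timp1 was most like Glipr2 (Pearson's r = 0.972), Naip2 (0.967) and Vim (0.966). Mmp19 was most like Palld (0.948), Ltbr (0.946) and Hk2 (0.944), and Mmp12 most like Tgif1 (0.921), Clec7a (0.920) and Lgals3 (0.919). Mmp13 went with Slc7a2 (0.921), Ms4a14 (0.920) and Cxcr4 (0.913). Mmp14 went with Fbn1 (0.898), Col12a1 (0.879) and Notch1 (0.876), and Mmp2 was most like Antxr1 (0.805), Col12a1 (0.795) and Mxra8 (0.793), so that Col12a1 was near both. Mmp9 went with Adamts1 (0.886), Cd93 (0.883) and Crtap (0.870), and Mmp3 with Tnfaip2 (0.859), Ptx3 (0.859) and Steap4 (0.833). Timp3 went with Pard3b (0.892), Ddah1 (0.880) and Reep3 (0.876), and Timp2 with Mesd (0.826), Maoa (0.796) and Atic (0.785).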

How the data were processed

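The authors trimmed reads with cutadapt 2.4, checked them with FastQC 0.11.8 and made the deposited estimated counts with kallisto 0.46 against GENCODE vM23 protein-coding transcripts. TPM values were used as deposited by the authors, whose notes name kallisto and give no further step for them. Of 35 samples, 1 had no column in the table, and 63 columns of the authors' own comparisons (p, q and fold changes) were not used, nor was sleuth. Estimated counts were rounded; 38.3% of all values were not whole within 0.01.

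In edgeR 4.0.16 (R 4.3.3) genes were filtered with filterByExpr by group, libraries were scaled with TMM (factors 0.968 to 1.04), and 1 quasi-likelihood fit of 34 libraries and 7 groups gave all contrasts. SE is the absolute log2 fold change over the square root of F. The analysis was tested on simulated data. Replicates correlated at 0.981 to 0.994 over 66 pairs within groups. Alternatives were DESeq2 1.42.0, no TMM, no filter, only the 2 groups compared, Sham mice of one week, a replicate block, a striatum covariate, a log2 fold change of at least 1 as well, and leaving out each library.

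The genes and lists were chosen with earlier results of these data known. Besides the members, at most 4 genes of a list are named with values, those with the lowest adjusted p in IL-4 MSCs against Sham at 1 wpi; genes of the chromosome 9 cluster, host genes, Timp4, Reck and the most abundant or absent markers are named beside them, chosen after their values were seen. Coordinates are from GENCODE vM21. Values were summarized in Python 3.11.15 with scipy 1.17.1, and figures drawn with matplotlib 3.10.9.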

Additional observations from a re-analysis of the deposited data

Results flagged for a closer look

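In 5 of 70 sets of a gene within a group, a single mouse stood apart by the ratio of the gap to the range, taken on log2 CPM, where about 1 in 20 would by chance. Mmp3 in PBS replicate 2 at 3 wpi was high, with a ratio of 0.854 (48 counts; 0 to 1 in the others). Mmp3 in MSC replicate 4 at 3 wpi had a ratio of 1, which is 1 count against 0 in the others. Mmp12 in MSC replicate 2 at 1 wpi was high, with a ratio of 0.712 (2.80 CPM; 0.742 to 1.10 in the others). Mmp14 in Sham replicate 2 was low, with a ratio of 0.762 (16.6 CPM; 18.5 to 19.2 in the others). Mmp19 in PBS replicate 1 at 3 wpi was low, with a ratio of 0.920 (0.966 CPM; 1.86 to 1.97 in the others).

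The 1 wpi difference minus the 3 wpi difference was called for Mmp13 (4.38 for IL-4 MSCs against PBS and 4.46 against MSCs), Mmp14 (0.67 against PBS), Mmp19 (1.24 against PBS and 1.46 against MSCs) and Timp1 (1.94 against MSCs).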

How the results depend on the processing

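Of the 49 calls, 545 values from leaving out 1 library gave 509 that kept the call, 36 that lost it and 0 with the direction reversed. The other alternatives gave 353 values, of which 327 kept the call, 26 lost it and 0 reversed.

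IL-4 MSCs against Sham at 1 wpi went from 9 genes to 5 when a log2 fold change of at least 1 was also asked for, which dropped Mmp2, Mmp9, Mmp14 and Timp3. IL-4 MSCs against Sham at 3 wpi went from 1 gene to 2 with DESeq2, which added Mmp3 (4.47, adjusted p = 0.0227), to 0 with only the 2 groups compared, where Mmp12 did not pass the filter and was not tested, and to 0 with the Sham mice of the same week. MSCs against Sham at 3 wpi went from 0 to 1 with DESeq2 (Mmp12, 2.46, adjusted p = 0.0263).

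IL-4 MSCs against MSCs at 3 wpi went from 0 to 1 with DESeq2 (Mmp3, 4.99, adjusted p = 0.00973), and to 0 or 1 on leaving out a library, the 1 being Mmp19 without IL-4 MSC replicate 1. From 1 to 3 wpi in MSCs, 2 genes became 5 with DESeq2, 4 without TMM, 1 with a log2 fold change of at least 1, and 1 to 5 on leaving out a library, with 5 without MSC replicate 4 at 1 wpi. In PBS, 2 became 1 with only the 2 groups compared, 1 with a log2 fold change of at least 1, and 1 to 3 on leaving out a library. For the change of the IL-4 MSC effect against PBS between weeks, 3 became 5 with DESeq2 (adding Mmp9 and Timp1) and 2 to 5 on leaving out a library.

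With the replicate block, the fall of Mmp19 from 1 to 3 wpi in MSCs was not called (-0.58, adjusted p = 0.0570), while those of Mmp3 (-4.80, adjusted p = 0.0425) and Mmp14 (-0.34, adjusted p = 0.0215) were. The replicate block also called Mmp13 in PBS against Sham at 1 wpi (2.44, adjusted p = 0.0387), Mmp3 in IL-4 MSCs against MSCs at 1 wpi (2.21, adjusted p = 0.0274) and the change of the Mmp9 effect against PBS (1.09, adjusted p = 0.0425). With it, IL-4 MSCs against Sham at 3 wpi had 2 genes and IL-4 MSCs against MSCs at 3 wpi had 1. The labels do not say whether replicate numbers pair mice. In these libraries 99 pairs with the same number had a median correlation of 0.0216 and 396 pairs with different numbers one of -0.00169. Such values cannot show that no pairing existed.

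Without TMM the share of higher genes among all called moved from 49.9% to 77.2% for IL-4 MSCs against Sham at 1 wpi, from 61.4% to 86.4% for MSCs, from 63.4% to 83.0% for PBS, and from 64.5% to 83.9% for IL-4 MSCs against PBS. Between the weeks it moved from 49.7% to 25.2% in IL-4 MSCs and from 19.8% to 5.39% in MSCs. No call among the 10 genes changed direction. The cause was not tested. At the depth of these libraries, Mmp3, Mmp12 and Mmp13 had from 0 to 5 counts in Sham mice, which limits their fold changes.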

Other observations

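Mmp27, which was not tested, had 7, 11, 14, 16 and 8 counts in IL-4 MSC mice at 1 wpi, 3, 9, 1, 5 and 1 in PBS, 1, 1, 2, 2 and 1 in MSCs and 0 in every Sham mouse. A2m in MSCs at 3 wpi stayed under 20.0 CPM except replicate 4 at 49.99 CPM. Hippocampus markers were lower in 1 of 7 genes and striatum markers higher in 11 of 13 in IL-4 MSCs against Sham at 3 wpi, where 1.52% of all genes were lower and 2.76% higher.

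The Sham group merges both weeks, with 2 and 3 mice, and had no injection. Libraries are single samples of bulk tissue, with 5 mice a group at most, and striatum content was uneven. Transcript levels say nothing of proenzyme activation or of inhibitor bound to enzyme, so activity was not measured. Injected and host transcripts were not separated.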
